A study of Mus musculus with 12 samples.

Results

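The circadian clock genes examined here were the transcripts whose gene symbol was Arntl, Clock, Per1, Per2, Per3, Cry1, Cry2, Nr1d1, Nr1d2 or Dbp, and all 10 were found among the 36047 genes of the table. RNA had been measured in 3 subsets of eosinophils from the proximal small intestine (SI) lamina propria of untreated, chow-fed, wild type C57BL/6J mice, with 4 libraries per subset and 2 mice pooled per library. The subsets were α4β7+, α4β7− CD22−, and CD22+, which the study takes as approximately younger, intermediate, and older cells. The labels give female mice, whereas the methods speak of both sexes at 6 to 12 weeks of age. The mice were kept in 12 h of light and 12 h of dark and cells were generally isolated in the morning, but the hour at which each library was collected is not given in the sources used here, so the libraries hold no time course. The study describes the 4 libraries of a subset as biological replicates. Whether libraries of different subsets with the same replicate number shared mice or a day is not given in the sources used here.

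The circadian clock is a feedback loop of transcription that runs in nearly every mammalian cell. ARNTL (also called BMAL1) and CLOCK form a pair that binds E-box sequences and activates the Per and Cry genes, whose proteins return to the nucleus and repress that pair. The same pair activates Nr1d1 and Nr1d2, whose nuclear receptors REV-ERBα and REV-ERBβ repress Arntl through ROR elements, and Dbp, an activator that acts on D-box sequences of output genes and of the Per genes. In a cell with a running clock, Arntl and the group of Dbp, Nr1d1 and Per peak at opposite times of day, so a level taken at 1 time is a position in a cycle as well as a level.

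The libraries held 14286474 to 16915755 normalized counts, the unit of all levels below unless a level per kb is named, and 1 read was worth about 0.852 to 1.16 of these. A value of 3 reads, the floor that a count of 0 allows, was thus 2.56 to 3.48, and the lowest value of any clock gene, 19.4 for Nr1d1, lay above it. Of the sorted surface proteins, Itgb7, which encodes the β7 chain of α4β7, averaged 2526, 220 and 156, and Cd22 averaged 1115, 4462 and 13334, in the order α4β7+, α4β7− CD22−, CD22+. All 10 eosinophil markers listed, among them Siglecf, Epx and Prg2, averaged above 10. Their summed level was 148364 to 169073 in α4β7+, 125097 to 139055 in α4β7− CD22− and 106736 to 124743 in CD22+ libraries. Within that list, Siglecf had means of 7534, 7827 and 7340 in the same order, whereas Ccr3, an eotaxin receptor, had means of 25121, 15187 and 10773, and Alox15, a lipoxygenase, 30556, 18333 and 11077. In bulk RNA, fewer cells of a type and less RNA per cell cannot be told apart.

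Sequence upstream of the transcription start is shown for Nr1d2 and Clock, the members that passed the test between subsets, for Nr1d1, the partner of Nr1d2, and for Per1, the member with the highest level. The sequences are RefSeq's on the GRCm38.p6 build, read 5′ to 3′ on the gene's strand and ending before the first annotated exon base met within the window; capitals mark an E-box (CACGTG) or an E-box-like site (AACGTG or, on the other strand, CACGTT). They lie at chr14:18239128-18239356 on the minus strand for Nr1d2, chr5:76304793-76305042 on the minus strand for Clock, chr11:98775378-98775627 on the minus strand for Nr1d1, and chr11:69098699-69098947 on the plus strand for Per1. The Per1 stretch lies inside the annotated span of the gene, before a RefSeq start within it, and was shown rather than the other Per1 window because it holds the E-box. For Clock, the window next to the outermost annotated start is shown.
Nr1d2: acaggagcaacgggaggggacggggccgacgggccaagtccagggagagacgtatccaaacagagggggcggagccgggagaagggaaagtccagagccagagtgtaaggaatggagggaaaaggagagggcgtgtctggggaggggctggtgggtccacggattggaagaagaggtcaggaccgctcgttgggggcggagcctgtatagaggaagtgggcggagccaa
Clock: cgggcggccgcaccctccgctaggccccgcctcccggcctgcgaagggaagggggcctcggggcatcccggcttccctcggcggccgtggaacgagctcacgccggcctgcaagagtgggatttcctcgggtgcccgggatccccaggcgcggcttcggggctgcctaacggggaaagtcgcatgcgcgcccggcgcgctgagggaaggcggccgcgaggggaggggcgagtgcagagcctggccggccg
Nr1d1: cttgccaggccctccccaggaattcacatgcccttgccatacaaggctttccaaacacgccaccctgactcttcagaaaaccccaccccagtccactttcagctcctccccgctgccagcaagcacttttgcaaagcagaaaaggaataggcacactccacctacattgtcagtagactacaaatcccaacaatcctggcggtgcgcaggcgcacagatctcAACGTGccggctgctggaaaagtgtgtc
Per1: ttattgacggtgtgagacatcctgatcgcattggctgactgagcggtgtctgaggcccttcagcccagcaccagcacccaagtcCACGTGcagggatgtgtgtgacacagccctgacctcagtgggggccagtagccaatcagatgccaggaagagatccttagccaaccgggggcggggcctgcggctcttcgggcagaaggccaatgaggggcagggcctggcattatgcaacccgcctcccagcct
Windows of 250 bases before to 50 bases after a start were searched on both strands for these letters, for the ROR element core (TAGGTCA or TGGGTCA) and for the D-box (TTANGTAA with C or T at N), and matches of different motifs did not overlap. RefSeq windows were matched for 9 of the 10 members, all but Per2, with 13 windows in all. The E-box was found in Cry1 and Per1, with its first letter 60 and 166 bases before the start, and in 7.15% of all 32851 windows. The E-box-like letters were in Cry1, Cry2 and Nr1d1 and in 4.68% of all windows. The D-box occurred at 2 places in Per3 and in 1.06% of all windows, and the ROR element core in a window of Arntl and in 6.45% of all windows. None of these letters was in the windows of Clock, Nr1d2 or Dbp, which says only that they are not in these windows. The genes themselves lie at chr14:18204054-18239127 for Nr1d2, chr5:76209868-76304792 for Clock, chr11:98767932-98775333 for Nr1d1 and chr11:69095217-69109960 for Per1, in GENCODE's annotation of GRCm38. The table gives 1 value per gene, so exons and isoforms are not told apart.

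The clock genes were present at very different levels. Compared per kb of exonic length, Per1 stood highest at 774 ± 71.5 normalized counts per kb (SD, n = 12 libraries), above 94.5% of the 15242 tested genes with a known length. Per2, at 99.4 ± 30.3 per kb, and Cry1, at 90.4 ± 18.1 per kb, followed and overlapped each other, but no library of either reached Per1. Cry2 (40.9 ± 9.46 per kb), Arntl (40.5 ± 4.24 per kb), Nr1d2 (40.2 ± 17.9 per kb), Clock (35.1 ± 8.28 per kb) and Dbp (35.0 ± 6.22 per kb) formed a middle group in which each overlapped the next. Nr1d1, at 12.0 ± 4.88 per kb, and Per3, at 5.85 ± 2.07 per kb, stood below all libraries of Dbp and overlapped each other. The mean level per kb of Per1 was 132-fold that of Per3.

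**Figure D1:**
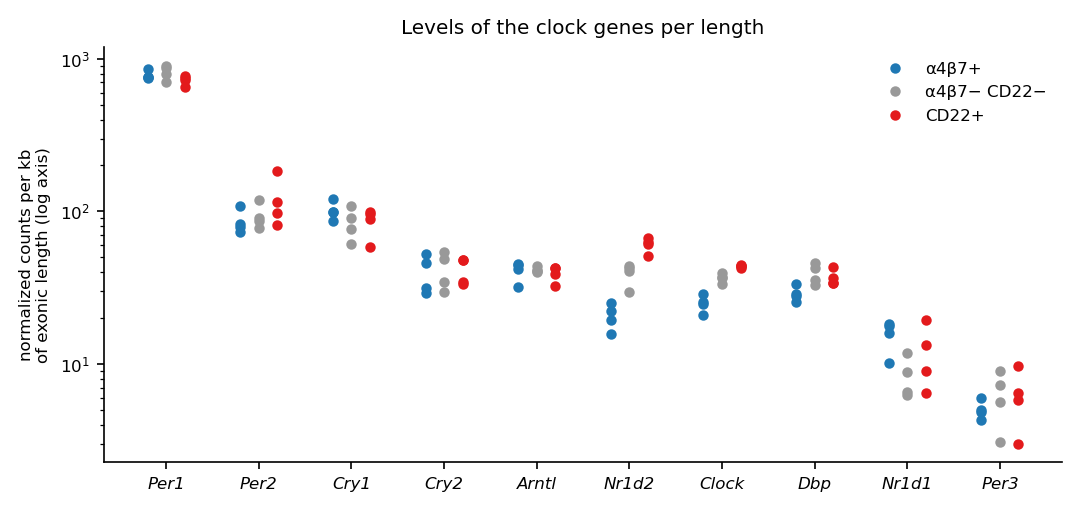
Levels of the 10 clock genes in normalized counts per kb of exonic length, on a log axis, with 1 point per library and the subsets side by side in colour. Per1 stands apart at 655 to 898 per kb, and Per3 and Nr1d1 lie lowest, while Nr1d2 and Clock climb from α4β7+ to CD22+.

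To ask which clock genes differed between the subsets, each pair of subsets was compared with limma on log2(normalized count + 1), over 15249 genes with an average above 10, which included all 10 members. A gene was called when its fold change reached 1.5 either way and its p, adjusted by the Benjamini-Hochberg method, was no more than 0.05. In α4β7− CD22− versus α4β7+ eosinophils, 1 clock gene was called higher and 0 lower, where 8.05% of all genes were called, 3.7% higher and 4.35% lower. In CD22+ versus α4β7+ eosinophils, 2 were called higher and 0 lower, where 12.0% of all genes were called, 5.6% higher and 6.39% lower. In CD22+ versus α4β7− CD22− eosinophils, 0 were called by limma and 2 had an unadjusted p under 0.05, where 9.67% of all genes had one and 0.603% were called, 0.21% higher and 0.393% lower. By the adjusted p alone, 2, 2 and 0 clock genes passed in these comparisons, where 14.9%, 21.1% and 1.08% of all genes did. The median log2 fold change of the 10 genes was 0.10, 0.13 and 0.01 in these comparisons, beside 0.00, 0.01 and 0.00 over all genes tested. The first pair of comparisons shares the α4β7+ libraries.

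**Figure D2:**
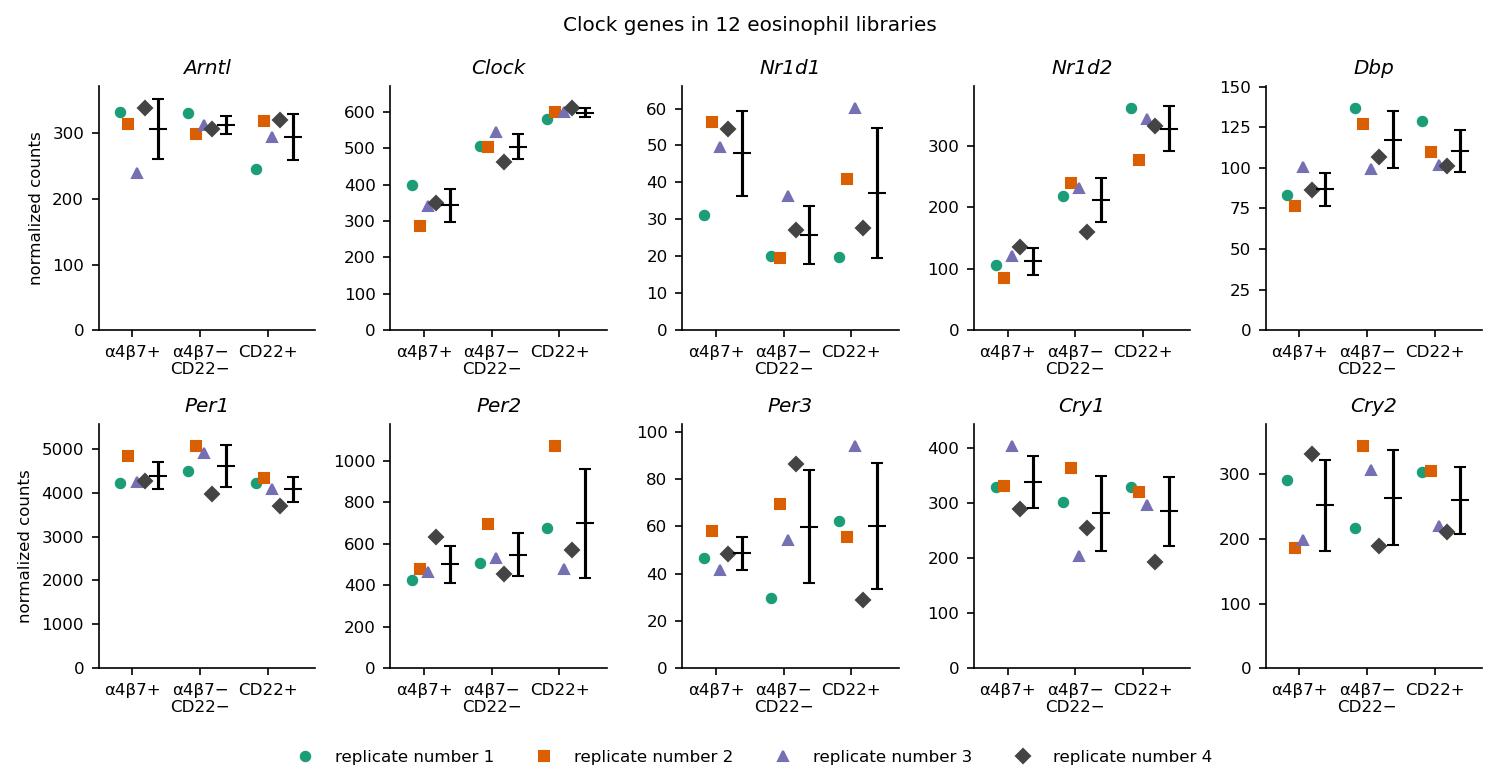
Normalized counts of the 10 clock genes in each library, by subset, with the replicate number given by the symbol and the mean ± SD of the 4 libraries at the right of each subset. Nr1d2 and Clock rise without overlap from α4β7+ to CD22+, Dbp has its lowest mean in α4β7+, and the other genes overlap between all subsets.

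Nr1d2, which encodes the repressor REV-ERBβ, rose from α4β7+ to CD22+ eosinophils. Its normalized counts were 106, 85.2, 121 and 136 in the α4β7+ libraries, 219, 239, 231 and 160 in the α4β7− CD22− libraries, and 361, 276, 343 and 332 in the CD22+ libraries. Every library of each subset thus lay above every library of the subset before it. The mean was 112 ± 21.6 (SD, n = 4) in α4β7+, 212 ± 36.0 (SD, n = 4) in α4β7− CD22− and 328 ± 36.7 (SD, n = 4) in CD22+ eosinophils. The fold change was 1.89 (95% interval 1.46 to 2.45; limma adjusted p = 0.00222) for α4β7− CD22− versus α4β7+ and 2.94 (95% interval 2.27 to 3.81; limma adjusted p = 1.18e-05) for CD22+ versus α4β7+. Between CD22+ and α4β7− CD22− it was 1.55 (95% interval 1.20 to 2.01), and the limma adjusted p of 0.122 did not pass.

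The counting of Nr1d2 had a limit. Of its longest coding transcript, 30.4% was shared at an identity of at least 90% with other genes, nearly all of it with the processed pseudogene AC170187.1 at chr19:40191038-40194370, in a match of 1385 bases at 96.1% identity. That pseudogene was listed at 0 in 11 of 12 libraries and at 1.96 in the other. How reads that fit both were divided between them was not tested.

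Clock, which encodes the partner of ARNTL, rose as well. Its values were 398, 286, 342 and 349 in α4β7+, 507, 503, 545 and 462 in α4β7− CD22−, and 581, 600.0, 598 and 610.0 in CD22+ libraries. As for Nr1d2, no library of a subset overlapped one of another subset. The 4 CD22+ libraries lay close together, with a coefficient of variation of 1.99%, against 13.3% in α4β7+. Clock was 1.75-fold higher in CD22+ than in α4β7+ eosinophils (95% interval 1.49 to 2.05; limma adjusted p = 5.73e-05). The fold change of 1.47 for α4β7− CD22− versus α4β7+ (95% interval 1.26 to 1.72; limma adjusted p = 0.00226) passed the adjusted p and missed the fold threshold. It passed both when α4β7+ replicate 1 or α4β7− CD22− replicate 4 was left out, at log2 fold changes of 0.63 and 0.60. Between CD22+ and α4β7− CD22− the fold change was 1.19 (95% interval 1.01 to 1.39; limma adjusted p = 0.451).

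Groups without overlap were not rare. Over all genes tested, the libraries of α4β7− CD22− and α4β7+ did not overlap for 18.8%, those of CD22+ and α4β7+ for 22.9%, and those of CD22+ and α4β7− CD22− for 6.37%. Of the 10 clock genes, Clock and Nr1d2 were without overlap in each of the 3 comparisons, and Dbp between CD22+ and α4β7+ alone. The share of all genes without overlap in all 3 at once was not counted, so no distinction is drawn from this.

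Arntl, the partner of Clock in the activating pair, was not called in any comparison. Its values were 333, 315, 239 and 338 in α4β7+, 331, 299, 313 and 306 in α4β7− CD22−, and 245, 318, 295 and 320 in CD22+ libraries. The subsets overlapped throughout. The fold change in CD22+ versus α4β7+ was 0.965, with a 95% interval from 0.792 to 1.18. The ratio of Clock to Arntl, both per kb, was 0.499 to 0.782 in α4β7+, 0.826 to 0.954 in α4β7− CD22− and 1.03 to 1.30 in CD22+ libraries, without overlap. This ratio was chosen after the levels were seen and was not tested.

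Nr1d1, which encodes REV-ERBα and acts with REV-ERBβ on the same elements, was at low levels and was not called. Its values were 31.2, 56.3, 49.5 and 54.5 in α4β7+, 20.2, 19.4, 36.2 and 27.2 in α4β7− CD22−, and 19.9, 40.9, 60.1 and 27.8 in CD22+ libraries. The CD22+ libraries spread over nearly the whole range of the other subsets. The fold change in α4β7− CD22− versus α4β7+ was 0.544 (95% interval 0.319 to 0.929), and the limma adjusted p of 0.127 did not pass. In CD22+ versus α4β7+ it was 0.739 (95% interval 0.433 to 1.26), and the log2 fold change, −0.44, ran from −0.70 to −0.19 with each library left out. The ratio of Nr1d2 to Nr1d1, both per kb, was 0.861 to 1.92 in α4β7+, 3.34 to 7.0 in α4β7− CD22− and 3.25 to 10.3 in CD22+ libraries. The difference between the responses of these genes was not tested.

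Dbp, the D-box activator and a direct output of the CLOCK and ARNTL pair, had lower values in α4β7+ than in the other subsets but did not pass. Its values were 83.5, 76.2, 101 and 86.4 in α4β7+, 137, 127, 99.1 and 107 in α4β7− CD22−, and 129, 110, 102 and 101 in CD22+ libraries. The highest α4β7+ library, at 101, overlapped the lowest α4β7− CD22− library and lay just below the lowest CD22+ library. The fold change was 1.35 (95% interval 1.04 to 1.74; limma adjusted p = 0.121) in α4β7− CD22− and 1.27 (95% interval 0.982 to 1.64; limma adjusted p = 0.189) in CD22+, both versus α4β7+. Dbp shares 18.0% of its exonic length with Sphk2 on the opposite strand and Nr1d1 shares 8.55% with Thra. Of the longest coding transcript, the measure used for Nr1d2, the shares were 29.5% for Dbp and 9.89% for Nr1d1. Whether the counting used strand is not given in the sources used here, so reads there cannot be assigned with certainty. The means of Sphk2 were 538, 474 and 452 and those of Thra 207, 196 and 217 over the 3 subsets, and neither was called.

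Per1, a repressor of the pair and also a gene that responds quickly to hormones such as glucocorticoids, was not called. Its values were 4213, 4839, 4255 and 4261 in α4β7+, 4492, 5058, 4910 and 3972 in α4β7− CD22−, and 4216, 4330, 4074 and 3690 in CD22+ libraries. The ranges overlapped in all comparisons. Its estimates were the most precise of the 10, with a standard error of 0.08 on the log2 scale, and the fold change in CD22+ versus α4β7+ was 0.928 with a 95% interval from 0.819 to 1.05. That in CD22+ versus α4β7− CD22− was 0.887 (95% interval 0.783 to 1.01; limma adjusted p = 0.549).

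Per2, the second repressor of this family, ranged from 427 to 632 in α4β7+, 454 to 694 in α4β7− CD22− and 476 to 1071 in CD22+ libraries. The highest value, 1071 in CD22+ replicate 2, stood above the next CD22+ library, at 676. The fold change in CD22+ versus α4β7+ was 1.34 (95% interval 0.982 to 1.84; limma adjusted p = 0.185), and the log2 fold change, 0.43, was 0.20 without CD22+ replicate 2. Per3, the member at the lowest level per kb, ranged from 41.4 to 57.9 in α4β7+, 29.8 to 86.2 in α4β7− CD22− and 29.0 to 93.9 in CD22+ libraries. Its intervals were wide, with a fold change in CD22+ versus α4β7+ of 1.15 between 0.669 and 1.97.

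Cry1 and Cry2 encode the cryptochromes, which join the PER proteins in repression. Cry1 ranged from 290 to 404 in α4β7+, 205 to 364 in α4β7− CD22− and 194 to 330 in CD22+ libraries, and its fold change in CD22+ versus α4β7+ was 0.832 (95% interval 0.621 to 1.11). Cry2 ranged from 186 to 331, 188 to 343 and 211 to 305, with a fold change of 1.05 (95% interval 0.745 to 1.47). The libraries of both genes overlapped in all comparisons.

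**Figure D3:**
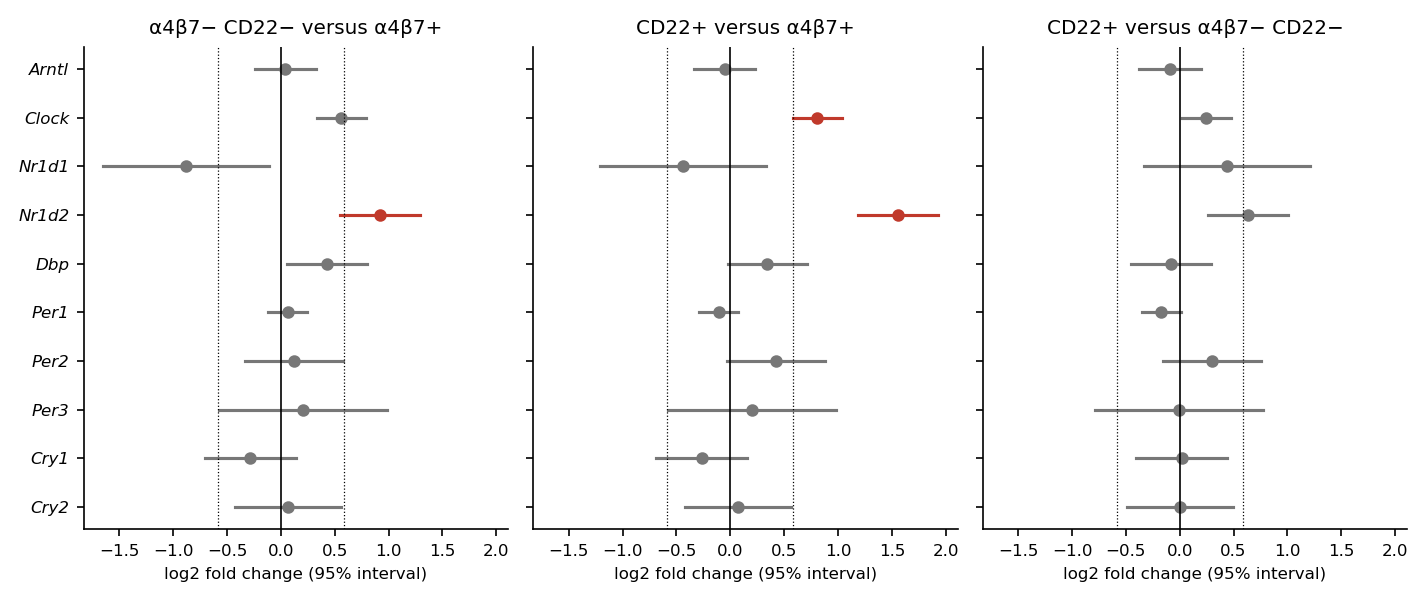
Log2 fold changes of the 10 clock genes with 95% intervals from limma in the 3 comparisons, with called genes in red, the solid line at 0 and the dotted lines at a fold change of 1.5 either way. Nr1d2 is called in both comparisons with α4β7+ and Clock in CD22+ versus α4β7+, and no gene is called between CD22+ and α4β7− CD22−.

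The spread between libraries of the same replicate number was described by splitting each gene's sum of squares on the log2 scale into the parts that went with the subset, with the replicate number, and with neither. For Clock, 90.5% went with the subset and 2.56% with the number, and for Nr1d2 90.1% and 1.96%. The replicate number took the most in Per1, at 51.3%, against 31.7% for the subset, and 39.9% in Nr1d1, against 40.3%. Cry2, with 91.2%, Per3, with 81.9%, and Arntl, with 72.1%, varied mainly without relation to either. Over the 10 genes the median was 28.5% for the subset and 18.1% for the number, beside medians of 28.1% and 20.4% over all genes tested.

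**Figure D4:**
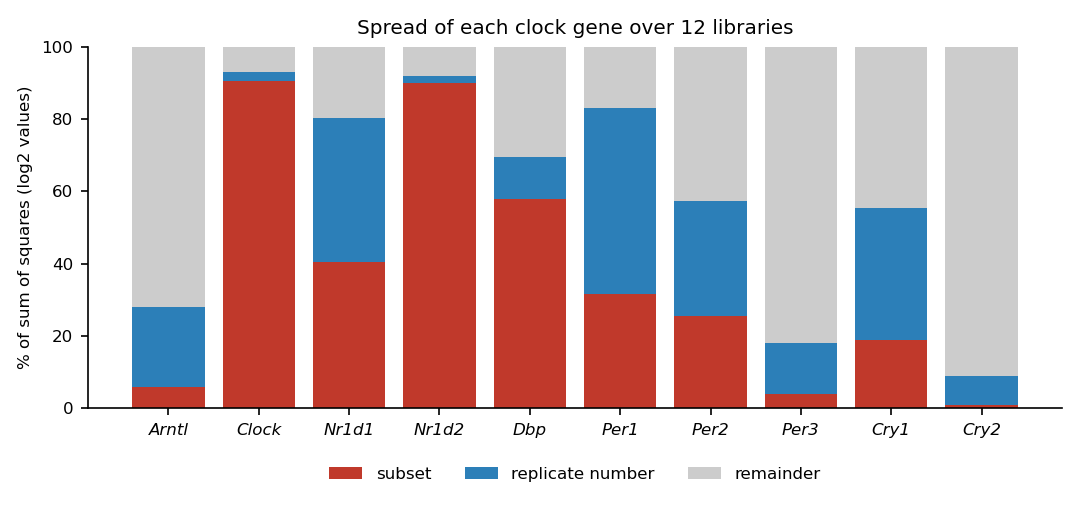
Percent of the sum of squares of each clock gene over the 12 libraries, on log2 values, that went with the subset, the replicate number or neither. Clock and Nr1d2 vary mainly with the subset, Per1 mainly with the replicate number at 51.3%, and Arntl, Per3 and Cry2 mainly with neither.

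In Per1, the 3 libraries numbered 2 lay 0.14, 0.14 and 0.09 above their subset means on the log2 scale, in the order α4β7+, α4β7− CD22− and CD22+, and the 3 numbered 4 lay at −0.04, −0.21 and −0.14. In Nr1d1, the libraries numbered 1 lay at −0.56, −0.30 and −0.75 and those numbered 3 at 0.08, 0.52 and 0.79. In Cry1, the libraries numbered 4 were all below their subset means, at −0.21, −0.11 and −0.52. The 3 libraries of a number lay on the same side of their subset means in 9 of the 40 pairs of a clock gene and a number, or 22.5%, and in 28.7% of pairs over all genes tested.

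A moderated F test of the replicate number beside the subset was passed by 0 of the 10 clock genes, where 3 of 15249 genes, or 0.0197%, passed at an adjusted p of at most 0.05. The count over all genes was 7, 9 and 14 without α4β7+ replicates 2, 3 and 4, 5 and 1 without α4β7− CD22− replicates 2 and 3, 1 without CD22+ replicate 3 and 11 with no filter, and that of clock genes was 0 in each of these fits. Per1 had the lowest p of them, with F = 3.60, an unadjusted limma p of 0.0472 and an adjusted p of 0.604, where 8.20% of all genes had an unadjusted p under 0.05. Its unadjusted limma p was above 0.05 in 10 of the 12 fits that left out 1 library, all but those without α4β7+ replicate 3 or 4, and reached 0.201 without α4β7− CD22− replicate 4. Which clock gene came nearest depended on the fit: Nr1d1 had an unadjusted limma p of 0.0366 without the trend, where Per1 had 0.158, Per2 had 0.0167 and 0.029 without α4β7+ replicates 2 and 4, and Cry1 had 0.0345 without α4β7− CD22− replicate 3. The 3 genes that passed, named after their values were seen, were Apoa4 and Fabp1, which serve lipid handling in enterocytes, and 1 gene listed without a symbol. Apoa4 was lowest in the libraries numbered 1, with 124, 159 and 61.8 normalized counts, and highest in those numbered 3, with 620.1, 748 and 867, in the order α4β7+, α4β7− CD22− and CD22+.

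Nr1d1 also ran with epithelial RNA. The 13 epithelial markers found in the table, of 14 listed, all averaged above 10, and their summed level was 4914 to 9538 in α4β7+, 4272 to 7497 in α4β7− CD22− and 3377 to 11545 in CD22+ libraries. Epcam, which marks epithelial cells, ranged from 241 to 941 over the 12 libraries. The listed markers did not all move alike over the subsets. Epcam had means of 560, 374 and 522 in the order α4β7+, α4β7− CD22−, CD22+, whereas Olfm4 rose, with means of 838, 1432 and 1697. Nr1d1 and the epithelial sum had a Pearson correlation of 0.72 over the 12 libraries and 0.77 after subset means were removed, as a description on log2 values of libraries that were normalized together. With the stroma and endothelium list, a sum that was mostly Pecam1, the correlations of Nr1d1 were −0.79 and −0.63. The CD22+ library with the highest epithelial sum, replicate 3 at 11545, also had the highest Nr1d1 value, at 60.1. The genes most like Nr1d1 over the libraries, named after their values were seen, were Maoa, Epb41l4b and Perp, with correlations of 0.93, 0.88 and 0.87. The sort took CD45+ CD11b+ SiglecF+ cells, and RNA of the epithelial markers was still counted in every library. The part of epithelial RNA in the values of Nr1d1 was not tested. Per3 had its highest such correlation with the summed Paneth cell markers, at 0.84 after subset means were removed, and 4 of these 5 markers averaged above 10.

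**Figure D5:**
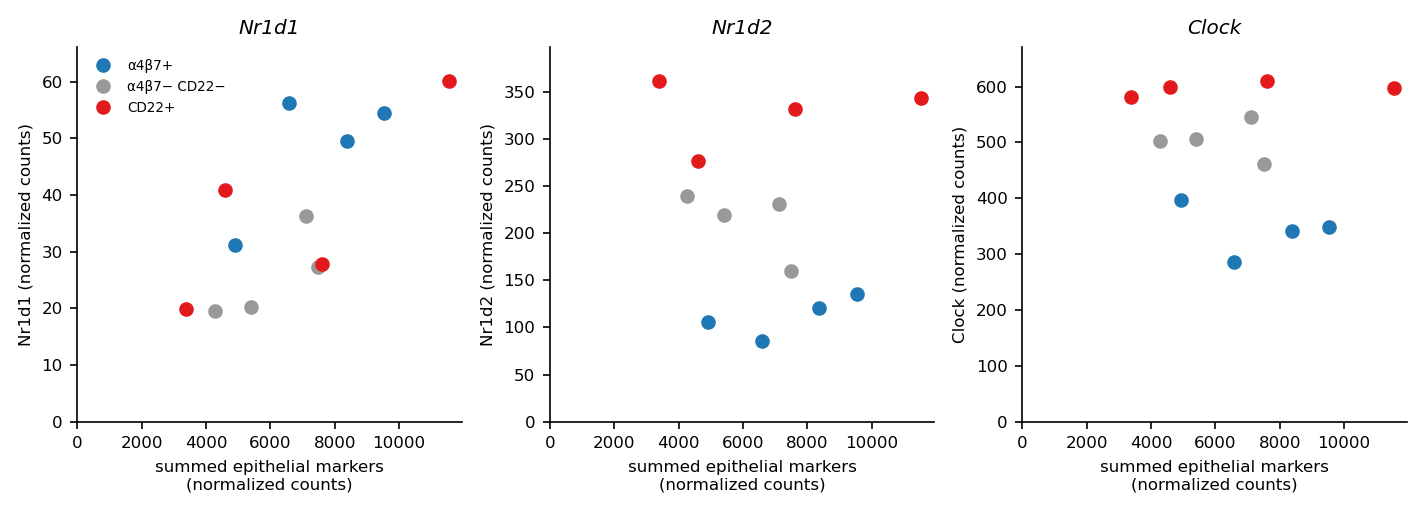
Normalized counts of Nr1d1, Nr1d2 and Clock against the summed level of 13 epithelial markers, with 1 point per library coloured by subset. Nr1d1 climbs with the epithelial sum, up to 60.1 in the library with a sum of 11545, while Nr1d2 and Clock keep the order of the subsets at low and high sums.

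Clock and Nr1d2 had correlations of −0.07 and 0.07 with the epithelial sum after subset means were removed. With the summed B and plasma cell markers these were −0.63 and −0.53, for each gene the largest in size among the marker lists. That sum was 24049 to 54657 in α4β7+, 17188 to 54681 in α4β7− CD22− and 24938 to 57455 in CD22+ libraries. The summed level of the neutrophil list was lower where Clock and Nr1d2 were higher, at 14394 to 22035 in α4β7+, 5971 to 8030 in α4β7− CD22− and 2859 to 3675 in CD22+ libraries. That sum was nearly all Retnlg, with means of 18828, 6709 and 3053, while Elane was at 0 in every library and S100a8, a defining neutrophil gene, had means of 0.00, 0.257 and 0.00, and 3 of the 8 listed markers averaged above 10. Ngp, a granule protein gene on that list, went the other way, with means of 31.6, 106 and 143. Of 18 genes of the response to tissue dissociation, which hold immediate early and heat shock genes, 0 rose and 8 fell in CD22+ versus α4β7+ eosinophils, 6 fell in α4β7− CD22− versus α4β7+ and 1, Jun, fell in CD22+ versus α4β7− CD22−, where 6.39%, 4.35% and 0.393% of all genes were called lower. Single genes of the list were higher by the adjusted p alone, with log2 fold changes of 0.41 for Atf3 in CD22+ versus α4β7+ (limma adjusted p = 0.0332) and 0.32 for Fos in α4β7− CD22− versus α4β7+ (limma adjusted p = 0.0323). Jun, Atf3 and Fos were named after their values were seen. The part of these in the values of Clock and Nr1d2 was not tested.

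Clock and Nr1d2 had a correlation of 0.95 over the 12 libraries and of 0.52 after subset means were removed. The genes outside the clock set whose pattern was most like that of Clock, among 10847 such genes with a symbol and an average of at least 50, were Irs2, an adaptor of insulin signalling, at 0.97, Nfasc, a cell adhesion gene, at 0.97, and 6820431F20Rik, at 0.97. Those most like Nr1d2 were Krba1 at 0.97, Acvr1b, a receptor of the activin family, at 0.96, and Plekhs1 at 0.96. Among the 45 pairs of clock genes, correlations after subset means were removed ran from −0.58, for Nr1d1 and Dbp, to 0.71, for Cry1 and Dbp, with a median of 0.10 and 27 above 0. These correlations are across 12 libraries and are given without a test.

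The genes that act around the core loop were counted from a list of 42, of which 38 were tested and Hlf, Ciart, Fbxl21 and Tspan4 were below the filter. In α4β7− CD22− versus α4β7+ eosinophils 0 were called higher and 1 lower, in CD22+ versus α4β7+ 0 higher and 3 lower, and in CD22+ versus α4β7− CD22− none by limma either way. These counts lie near the shares of all genes called lower, 4.35% and 6.39% in the first pair of comparisons. Their median log2 fold changes were −0.05, −0.03 and −0.02, beside 0.00, 0.01 and 0.00 over all genes tested.

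Rora, which encodes the activator that binds ROR elements in competition with the REV-ERB receptors, fell in both comparisons with α4β7+. Its values were 141, 180.1, 149 and 132 in α4β7+, 71.9, 77.8, 58.7 and 68.4 in α4β7− CD22−, and 40.0, 68.3, 91.3 and 147 in CD22+ libraries. The α4β7− CD22− libraries lay below all α4β7+ libraries, whereas CD22+ replicate 4, at 147, reached into their range. The summed level of the T cell and ILC list, cells that also express Rora, was 1059 to 1752 in α4β7+, 692 to 989 in α4β7− CD22− and 1063 to 1506 in CD22+ libraries, and 7 of the 9 listed markers averaged above 10. Rora and that sum had a correlation of 0.63 over the 12 libraries and of 0.48 after subset means were removed, as a description, and both were highest in the same library in α4β7+ and in CD22+ but not in α4β7− CD22−. The sort took CD11b+ SiglecF+ cells, and RNA of the markers on this list was still counted in every library. The part of T cells and ILCs in the values of Rora was not tested. The log2 fold change was −1.11 (SE 0.30; limma adjusted p = 0.0225) in α4β7− CD22− and −0.93 (SE 0.30; limma adjusted p = 0.0402) in CD22+, both versus α4β7+. The CD22+ call was lost in 9 of the 12 fits that left out 1 library, namely α4β7+ replicates 1, 2, 3 and 4, α4β7− CD22− replicates 1, 2 and 4, and CD22+ replicates 1 and 2, with limma adjusted p up to 0.113. Over these 12 fits the log2 fold change in CD22+ versus α4β7+ ran from −1.23 to −0.61. The α4β7− CD22− call was lost without α4β7+ replicate 2 or α4β7− CD22− replicate 3, at limma adjusted p of 0.0637 and 0.0615. Siah2, a ubiquitin ligase, fell in CD22+ versus α4β7+ eosinophils from 63.2 ± 12.3 to 25.0 ± 11.8 (SD, n = 4), with a limma adjusted p of 0.00765. Nampt, an NAD-synthesis enzyme and a known clock output, fell from 1734 ± 357 to 932 ± 204 (SD, n = 4), with a limma adjusted p of 0.0011.

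By the adjusted p alone, 6 of the 38 accessory genes tested passed in α4β7− CD22− versus α4β7+, 3 higher and 3 lower, and 11 passed in CD22+ versus α4β7+, 4 higher and 7 lower, where 14.9% and 21.1% of all genes did. None of the 8 clock kinases was called, although Csnk1e, which phosphorylates the PER proteins, had means of 6796, 9894 and 9194 and passed the adjusted p in both comparisons with α4β7+, where quantile normalization lifted its log2 fold change past the fold threshold, to 0.60 in both, and leaving out α4β7+ replicate 1 to 0.59 in α4β7− CD22− versus α4β7+. Bhlhe40, a repressor that competes for E-boxes, had means of 5934, 4463 and 4285, with a log2 fold change of −0.46 in CD22+ versus α4β7+ (SE 0.10; limma adjusted p = 0.00328). Csnk1a1, another kinase of the PER proteins, had means of 4021, 4863 and 4780 and also passed the adjusted p in both comparisons with α4β7+. Prkaa1, also on the kinase list, went the other way, with a log2 fold change of −0.30 in CD22+ versus α4β7+ (SE 0.09; limma adjusted p = 0.0218). None of the 9 coregulators was called, although the NAD-dependent deacetylase Sirt1 passed the adjusted p in both comparisons with α4β7+, with means of 437, 569 and 635. Csnk1e, Bhlhe40, Csnk1a1, Prkaa1 and Sirt1 were named after their values were seen. Of 6 glucocorticoid-responsive genes, listed because Per1 and Per2 respond to that hormone, 1 was called higher and 1 lower in CD22+ versus α4β7+ eosinophils, where 12.0% of all genes were called, 0 higher and 1 lower in α4β7− CD22− versus α4β7+, where 8.05% were, and none by limma in CD22+ versus α4β7− CD22−. Sgk1 rose by a log2 fold change of 0.81 (SE 0.14; limma adjusted p = 0.000489). Dusp1, which is also on the dissociation list, fell by 1.20 on the log2 scale in the same comparison (SE 0.09; limma adjusted p = 1.85e-07) and by 0.79 in α4β7− CD22− versus α4β7+ (limma adjusted p = 2.67e-05), and the other 4 were not called in any comparison. By the adjusted p alone, Tsc22d3 was higher in CD22+ versus α4β7+, with a log2 fold change of 0.48 (limma adjusted p = 0.00416). Zbtb16 was lower in α4β7− CD22− versus α4β7+, at −0.32 (limma adjusted p = 0.0335). Tsc22d3 and Zbtb16 were named after their values were seen.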

How the data were processed

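Eosinophils were sorted by the authors as live CD45+ CD11b+ SiglecF+ MHCII− Ly6G− cells from the proximal SI, 12 libraries in all, and stranded total RNA libraries were made from 3 ng of RNA. The authors trimmed reads with Trimmomatic 0.39, pseudoaligned them to mm10 with kallisto 0.46.1, and normalized counts with DESeq2 1.38.2. The deposited values are these normalized counts, a signal that is not whole: 36.8% to 67.9% of low values lay within 5% of a whole number of reads, so no count model was fitted. The depth, 13858261 to 17321909 estimated reads per library, sets a floor that covers counting error only.

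Comparisons used limma (version 3.58.1, R 4.3.3) on the scale log2(normalized count + 1), which understates fold changes of low genes, for genes with an average above 10, with all 3 subsets in 1 model and a trend of variance on expression, and Benjamini-Hochberg adjustment over all genes tested. The replicate number was tested with a moderated F test beside the subset. Of 36047 identifiers, 35968 matched the GENCODE annotation of GRCm38, which gave exonic lengths. Shared transcript sequence was found with BLAST 2.17.0. Named genes are the 10 members, listed genes called in at least 1 comparison, and the 3 genes most correlated with each called member; genes named outside this rule were chosen after their values were seen. The members, gene lists and tests were chosen with earlier results of these data known. Alternatives were other pseudocounts, filters and scalings, no trend, the adjusted p alone, the 2 subsets alone, a replicate block, and each library left out. The scripts were tested on simulated data and used pandas 2.3.3 and matplotlib 3.10.9.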

Additional observations from a re-analysis of the deposited data

Results flagged for a closer look

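Of 30 groups of 4 libraries, 10 clock genes in 3 subsets, 1 had a library far from the others: Per1 in α4β7+ replicate 2, at 4839 normalized counts, where the other 3 lay between 4213 and 4261 and the ratio of its gap to the range was 0.924, past the critical value of Dixon's test at the 95% level. Chance flags about 1 in 20 such groups. The call of Per1 did not change without this library.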

How the results depend on the processing

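The calls of Nr1d2 in both comparisons with α4β7+ and of Clock in CD22+ versus α4β7+ were unchanged under every alternative run, and no clock gene was called in CD22+ versus α4β7− CD22− under any. In α4β7− CD22− versus α4β7+, 2 clock genes passed the adjusted p alone, and leaving out each library gave 1 to 2 called, with Clock the added gene. Leaving out each library gave 2 to 2 in CD22+ versus α4β7+, 0 to 0 in CD22+ versus α4β7− CD22−, and 0 to 0 past the replicate number test. With a replicate block the counts were 1, 2 and 0, and no call of a clock gene changed. Deviations of same-numbered libraries from their subset means had correlations of 0.043 to 0.137, −0.0586 to 0.182 and 0.135 to 0.203 in the 3 comparisons, so every pair was above 0.1 in CD22+ versus α4β7− CD22− and not in the others; whether same-numbered libraries share mice or a day was not stated. Over all genes, CD22+ versus α4β7− CD22− had 54 calls without the trend, beside 92, and the adjusted p alone gave 2265, 3223 and 164 beside 1228, 1829 and 92.

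Among the clock genes, signs turned only for estimates that were not called. In CD22+ versus α4β7− CD22−, the log2 fold change was −0.0141 for Cry1 under quantile normalization, and 0.0115 for Cry2 and 0.00303 for Per3 under 75th percentile scaling. With each library left out, it ran for Arntl from −0.0734 to 0.093 in α4β7− CD22− and from −0.166 to 0.0337 in CD22+, both versus α4β7+; for Cry1 from −0.124 to 0.193 in CD22+ versus α4β7− CD22−; for Cry2 from −0.0726 to 0.214, −0.0631 to 0.213 and −0.147 to 0.140 in α4β7− CD22− versus α4β7+, CD22+ versus α4β7+ and CD22+ versus α4β7− CD22−; and for Per3 from −0.0499 to 0.504 in CD22+ versus α4β7+ and −0.304 to 0.296 in CD22+ versus α4β7− CD22−. The cause was not tested. Of the accessory genes, whose alternatives were chosen after seeing the data, the Rora call in CD22+ versus α4β7+ was also lost with no filter, without the trend and with only the 2 subsets compared, at limma adjusted p of 0.0621, 0.0618 and 0.0751. With 4 libraries per subset, the precision of low genes such as Nr1d1 and Per3 is limited.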
